A study of Drosophila melanogaster with 8 samples.

Results

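The transcriptome described here is that of control whole flies: the 5 libraries of Drosophila melanogaster that carry the genotype label control, of 8 libraries in all. The deposited sample sheet names their genotype w1118, a laboratory strain with a deletion in white, the gene of an eye pigment transporter. RNA came from whole adults on day 8 of adult life, kept on food with 8% yeast and 9% sugar, and poly(A) RNA was sequenced as stranded paired-end libraries. The labels give neither the sex nor the number of flies per library, and they mark these controls as re-used from another series. The libraries are numbered 1 to 5 here as names, in the order of their accessions; the sample sheet calls library 3 "1 DHR39" in its replicate column but gives it the genotype w1118. Nothing says whether the libraries came from separate cultures, so the spread between them may be in part technical. With 1 group of samples, no conditions were compared and the values are descriptions.

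A whole-fly library adds up the RNA of all organs in proportion to their RNA content, so genes that 1 organ transcribes very strongly can stand beside genes that every cell uses. In adult flies the fat body stores lipid and makes blood proteins, oenocytes make the hydrocarbons that waterproof the cuticle, and the midgut secretes proteases. The male accessory glands, ejaculatory duct and ejaculatory bulb make seminal proteins, while yolk proteins are made in the female fat body and ovary.

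The 5 libraries held 18431413, 18331376, 17345101, 19093675 and 17472848 counts in genes. Of 14865 genes in the table, 14188 had a count in every control library and 35 had none in any. A mean of at least 1 CPM (the counts-per-million level on the library's total) was reached by 12601 genes. The 95 genes at a mean of 1000 CPM or more held 19.8% of all counts, and the 2139 genes from 100 to 1000 CPM held 52.6%. The 2264 genes under 1 CPM held 0.0888% together. Between 734 and 791 genes made up 50% of the counts of a library, so the pool was broad and its breadth was alike in the 5 libraries. No 2 libraries agreed within counting error: over genes, the chi-square of counts between 2 libraries was 17.3 to 42.9 times its degrees of freedom, where counting error alone gives about 1. This does not tell separate samples from repeat preparations of the same RNA.

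The gene the series is about, Hr39 (FBgn0261239, 2L:21237250-21259675, plus strand), which encodes a nuclear receptor, averaged 34.8 ± 1.99 CPM (SD, n = 5), and ranked 5266 by CPM. Its values were 37.5, 32.9, 32.8, 35.4 and 35.6 CPM in libraries 1 to 5, so library 3 lay beside library 2 at the low end of a narrow range. Among the other nuclear receptors, Hnf4, which controls fat and glucose metabolism, averaged 141 ± 11.9 CPM, and Eip75B, an ecdysone-induced receptor, averaged 120.2 ± 15.3 CPM. The 20 nuclear receptor genes held 0.0699 ± 0.00471% of counts. None of the 15 at a mean of 5 CPM or more differed 2-fold between libraries, against 4.21% of all genes at that level. At that share so short a list may well hold none. The white gene, w, was at 1.53 ± 0.428 CPM.

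Cyp4g1 (FBgn0010019, X:467057-469335, minus strand), the oenocyte cytochrome P450 that makes cuticular hydrocarbons from aldehydes, took the most counts of all genes in the table by a wide margin. It had 31759, 26604, 31052, 26786 and 31721 CPM in libraries 1 to 5, or 2.96 ± 0.265% of all counts. Libraries 2 and 4 were lower than the other 3. By counts, the translation elongation factor eEF1alpha1 came next at 7394 ± 443 CPM, followed by apolpp, the lipoprotein that carries lipid through the haemolymph, at 4958 ± 736 CPM. Values of apolpp were 5574, 5815, 4169, 4300.2 and 4934 CPM, higher in libraries 1 and 2 than in 3 and 4.

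The rest of the 20 most abundant genes were spread over several organs and functions. Translation was also represented by eEF2 at 3902 ± 241 CPM, and vision by ninaE, the main rhodopsin of the compound eye, at 3706 ± 207 CPM. Lipid synthesis was represented by Desat1, a fatty acid desaturase, at 3660.5 ± 448 CPM and by FASN1, a fatty acid synthase, at 2517 ± 404 CPM. Muscle gave SERCA, the calcium pump of the sarcoplasmic reticulum, at 2981 ± 174 CPM and Mhc, the myosin heavy chain, at 2644 ± 163 CPM. Seminal fluid genes gave CG17097 at 3927 ± 303 CPM and Acp36DE, an accessory gland protein needed for sperm storage, at 3258 ± 869 CPM. Digestion gave the serine protease genes yip7 at 2557 ± 518 CPM and Jon65Aiv at 2342 ± 529.9 CPM. The glycolytic enzyme Ald was at 3487 ± 69.6 CPM and the constitutive chaperone Hsc70-4 at 2548 ± 253 CPM. The 5 of the 20 that stood in no list used here were CG12374, CG34220, CG4836, CG2233 and the non-coding gene CR42862, at 3299, 3167, 2669.6, 2467 and 2548 CPM. CR42862 overlaps another gene on its own strand, so its count is uncertain.

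**Figure D1:**
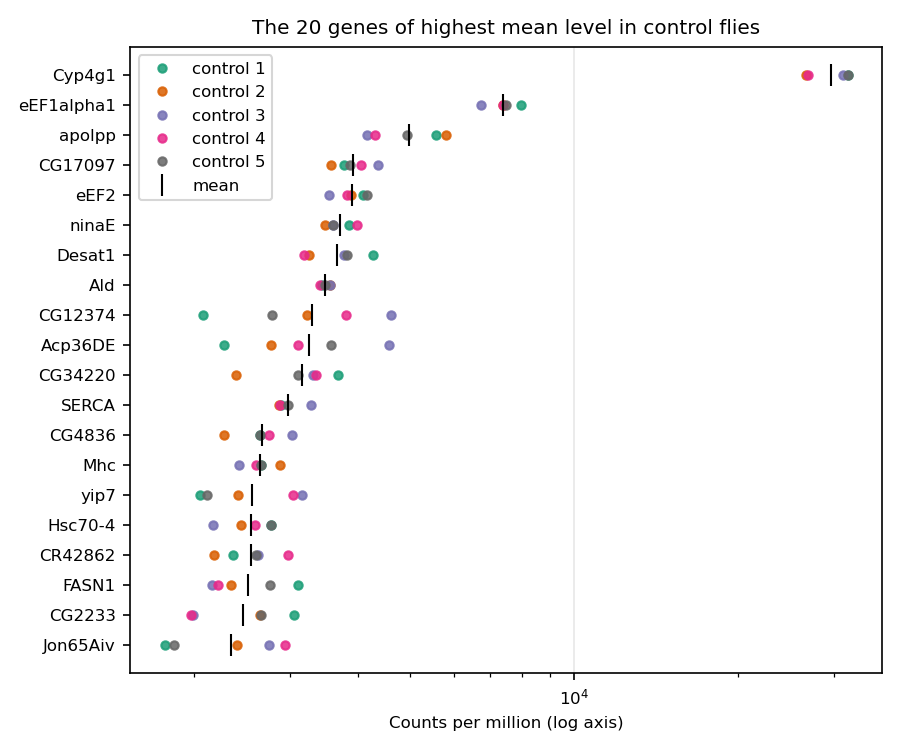
Level in CPM (log axis) of the 20 genes of highest mean level, with a point for each of the 5 control libraries and a bar at their mean. Cyp4g1 lies apart at a mean of 29585 CPM. Most genes have their 5 points close together, while CG12374 and Acp36DE spread more widely, Acp36DE from 2274 to 4561 CPM.

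These 20 genes differed in how steady they were. Ald had 3434, 3561, 3552, 3405 and 3485 CPM in libraries 1 to 5, the narrowest relative spread of the 20. Acp36DE had 2274, 2772, 4561, 3112 and 3573 CPM, lowest in library 1 and highest in library 3. CG12374 had 2076, 3224, 4599, 3810.5 and 2786 CPM, with the same libraries at its ends. The 20 genes together made up 9.13% to 9.77% of a library's counts.

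Counts favour long transcripts, so levels between genes were also set side by side per length, as TPM (counts divided by the summed exon length of the gene and scaled to the same total in every library). Cyp4g1 stayed first with 22997 ± 2363 TPM (SD, n = 5). Short genes moved up: Mst57Db (FBgn0011669, 3R:25830720-25830914, minus strand), which encodes a small male-specific peptide, was second with 8694 ± 1488 TPM from an exon length of 195 bases. Its values were 6409, 8800.1, 10576, 8981 and 8705 TPM, again lowest in library 1 and highest in library 3.

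Of the 20 genes of highest TPM, 7 were also among the 20 of highest CPM, and 5 belonged to the seminal fluid list. These 5 were Mst57Db, Acp95EF at 4816 ± 1154 TPM, Mst57Da at 4009 ± 398 TPM, Sfp87B at 3203 ± 1620.1 TPM and Dup99B, a peptide of the ejaculatory duct related to the sex peptide, at 3092 ± 440.4 TPM. Proteases of the gut gave yip7 at 4993 ± 927, Jon65Aiv at 4572 ± 971 and alphaTry, a trypsin, at 3581 ± 345 TPM. RpL41, a ribosomal protein of very short length, was at 3341 ± 386 TPM and ninaE at 4134 ± 311 TPM. Of the 8 that stood in no list, CG43147 and CG18628 were highest, at 5845 ± 909 and 5579 ± 472 TPM.

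Marker genes of 15 tissues or cell types were read in the 5 libraries, and 44 of 46 genes had a row in the table. Genes of the male reproductive tract were abundant, with 496 ± 81.9 CPM of Acp26Aa and 141 ± 24.8 CPM of SP from the accessory gland, and 1448 ± 112 CPM of Est-6 from the ejaculatory duct. From the testis, betaTub85D was at 702 ± 82.5 CPM, dj at 213 ± 29.2 CPM and Mst84Da at 181 ± 25.6 CPM. The Y-linked dynein gene kl-5 had 30.1, 22.8, 26.1, 26.03 and 30.3 CPM and kl-3 had 14.4, 12.3, 19.03, 13.98 and 12.5 CPM, so both were counted in every library. A further Y-linked gene, ORY, averaged 6.45 ± 0.736 CPM.

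Genes of female tissues were low in all 5 libraries. The yolk protein genes Yp1, Yp2 and Yp3 were at 1.54 ± 0.657, 1.12 ± 0.403 and 9.53 ± 1.66 CPM, the chorion gene Cp18 at 0.703 ± 0.294 CPM, and the oocyte genes bcd and osk at 0.0776 ± 0.0313 and 0.132 ± 0.133 CPM. For comparison, 3 counts in a library correspond to 0.157 to 0.173 CPM. The exception was grk, a growth factor gene of the oocyte, at 31.01 ± 3.36 CPM. eloF, a fatty acid elongase of female hydrocarbon synthesis, was at 0.950 ± 0.495 CPM. The dosage compensation RNA roX1, which coats the single X chromosome of males, had 577, 633, 672, 674 and 637 CPM, and roX2 had 8.14, 12.3, 10.1, 12.2 and 11.3 CPM; roX1 overlaps another gene on its own strand.

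Other organs were present by their markers. Photoreceptor genes trp and chp were at 342 ± 34.8 and 231 ± 19.7 CPM, the neuronal genes nSyb, brp and elav at 221 ± 17.3, 124 ± 11.4 and 49.6 ± 7.25 CPM, and the glial genes alrm, repo and wrapper at 28.4 ± 4.03, 14.2 ± 2.77 and 11.3 ± 1.88 CPM. The midgut genes alphaTry, Mal-A1 and Jon99Ciii were at 1743 ± 197, 1292 ± 335 and 1139 ± 190.1 CPM. Malpighian tubules, the excretory organ, showed Uro at 85.7 ± 18.7, Irk3 at 69.3 ± 6.26 and CapaR at 7.53 ± 1.57 CPM. Haemocytes, the blood cells, showed Hml at 170.2 ± 39.8, NimC1 at 37.7 ± 6.76 and eater at 5.50 ± 1.48 CPM. Of the fat body markers, apolpp was among the most abundant genes while Fbp1, a larval receptor for storage proteins, was near 0 at 0.0555 ± 0.0558 CPM. The flight muscle genes fln and Act88F, beside the Mhc given above, were at 85.3 ± 12.2 and 78.3 ± 28.1 CPM.

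The share of a library's counts was then summed over 21 tissue lists and 24 function lists of genes. The lists hold 1564 genes and 34.6 ± 0.722% of counts, so 65.4% of counts lay in genes of no list. In whole flies, fewer cells of a type and less RNA per cell cannot be told apart in such a share. The lists share some genes; 4 of the 14 genes of the ejaculatory duct and bulb list, for one, are also in the seminal fluid list.

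Among tissues, the oenocyte list held the largest share, 3.94 ± 0.306% of counts (SD, n = 5), of which Cyp4g1 alone was 75.1%. Seminal fluid genes held 2.67 ± 0.387% of counts in 82 genes and 6.43% of TPM, the highest TPM share of the tissue lists. Muscle held 2.33 ± 0.0727%, digestive enzymes 2.16 ± 0.204% and testis and sperm genes 1.35 ± 0.178%. The photoreceptor list held 0.986 ± 0.0445%, of which ninaE was 37.6%, and the ejaculatory duct and bulb held 0.922 ± 0.162%. The fat body list held 0.861 ± 0.132% (57.6% of it apolpp), neurons 0.430 ± 0.0285%, haemocytes 0.301 ± 0.0403% and glia 0.291 ± 0.0118%.

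Other tissue lists held small shares. Malpighian tubule genes held 0.126 ± 0.00592% and the 38 neuropeptide genes 0.0673 ± 0.00217%. The 113 olfactory, gustatory and ionotropic receptor genes held 0.0122 ± 0.000729%, and only 4 of them reached a mean of 5 CPM. Odorant binding proteins, by contrast, held 0.364 ± 0.0262%, led by Obp56g at 699 ± 155 CPM, a gene that is also in the ejaculatory list. Gut lining genes held 0.237 ± 0.0237%, eye pigment genes 0.0825 ± 0.00936% and cuticle genes 0.0697 ± 0.00388%. Y-linked genes held 0.0116 ± 0.000885% and the yolk and eggshell genes 0.00298 ± 0.000320%. The ovary and germline list held 0.138 ± 0.0122%, but 88.9% of that came from exu, bru1 and BicD, which are not limited to the ovary, at 778, 354 and 89.95 CPM.

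**Figure D2:**
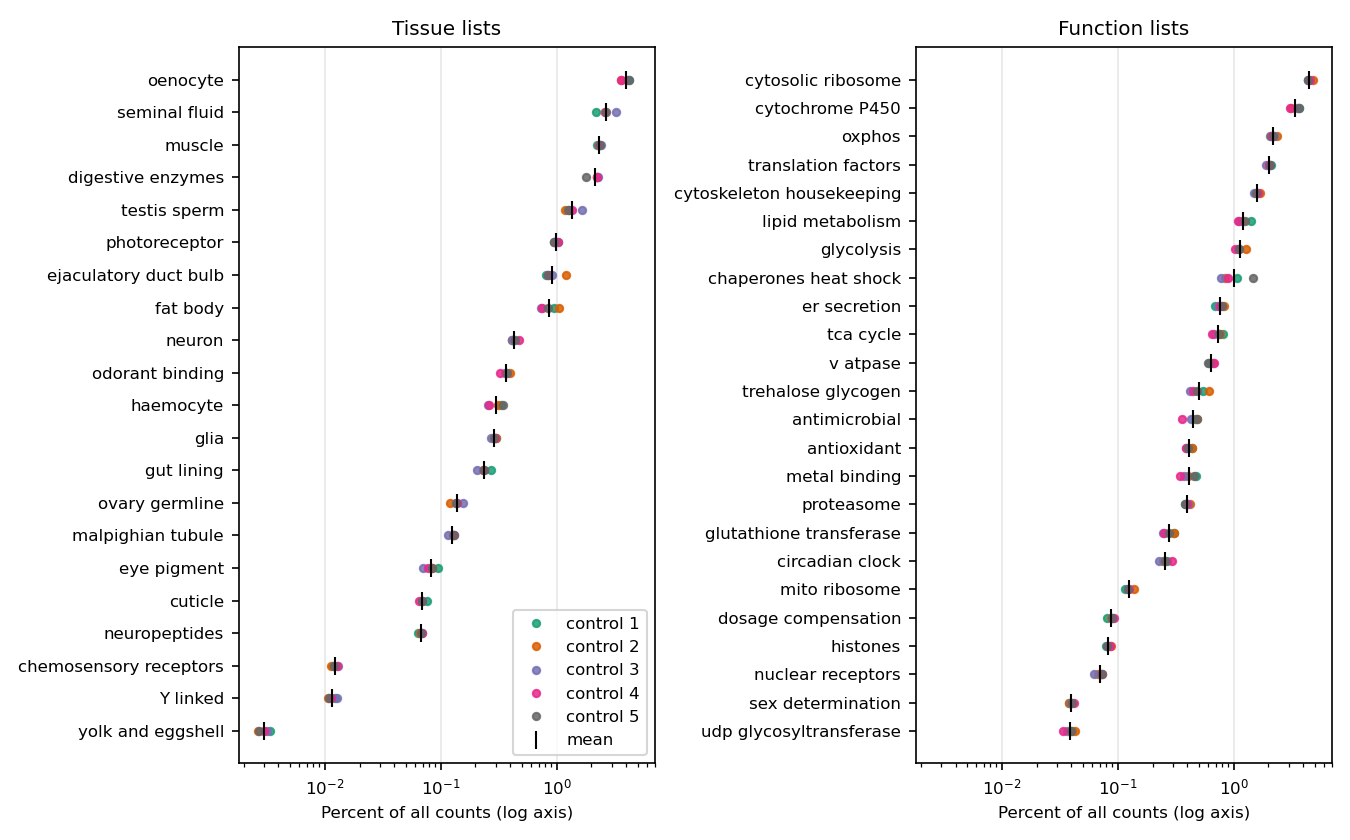
Percent of all counts (log axis) in 21 tissue lists and 24 function lists, with a point for each control library and a bar at the mean. The points of most lists lie on top of each other; the ejaculatory duct and bulb list has library 2 above the other 4, digestive enzymes have library 5 below them, and chaperones have library 5 above them.

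Among functions, cytosolic ribosomal protein genes came first with 4.51 ± 0.196% of counts and 8.64% of TPM. The highest, RpL3, RpL5 and RpS3A at 1223, 1183 and 1058 CPM, made up 7.67% of the list. Translation factors held 2.02 ± 0.0723%, with eEF1alpha1 giving 36.7% of it. Mitochondrial ribosomal protein genes held 0.125 ± 0.00876%, far less than their cytosolic counterparts, with mRpS5 the highest at 70.6 ± 4.59 CPM.

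Energy metabolism held several of the larger shares. Nuclear genes of oxidative phosphorylation held 2.18 ± 0.121%, led by the ATP synthase genes ATPsynbeta at 2230.3 ± 178, blw at 1515 ± 88.3 and ATPsynC at 1472 ± 145 CPM. Glycolysis held 1.13 ± 0.0867%, led by Ald, Eno at 1542 ± 122 CPM and Gapdh1 at 1059 ± 168 CPM. The citric acid cycle list held 0.731 ± 0.0643%, led by Nc73EF, a subunit of 2-oxoglutarate dehydrogenase, at 1564 ± 90.9 CPM. Lipid metabolism held 1.21 ± 0.124% and the genes of trehalose and glycogen 0.501 ± 0.0774%. In the last of these, Tps1, which makes trehalose, the blood sugar of insects, had 1902, 2073, 1414, 1565 and 1691 CPM.

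Chaperones and heat shock genes held 1.02 ± 0.280%, genes of the endoplasmic reticulum and secretion 0.763 ± 0.0560%, the proton pump V-ATPase 0.639 ± 0.0308% and the proteasome 0.397 ± 0.0169%. Cytochrome P450 genes held 3.41 ± 0.283%, but 86.8% of this was Cyp4g1; the next members were Cyp313a1 at 480.2 ± 77.3 CPM and Cyp6g1 at 463 ± 145 CPM. Glutathione transferases held 0.277 ± 0.0271%, antioxidant enzymes 0.413 ± 0.0244%, metal-binding proteins 0.410 ± 0.0527% and immune effectors 0.443 ± 0.0533%. Among secretion genes, the endoplasmic reticulum chaperone Hsc70-3 and Pdi, a protein disulfide isomerase, led with 955 ± 111 and 929.6 ± 69.9 CPM. Clock genes held 0.258 ± 0.0257%, led by tim at 561 ± 148 CPM, a gene that overlaps another on its own strand.

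The smallest function shares were those of UDP-glycosyltransferases at 0.0387 ± 0.00355%, sex determination genes at 0.0397 ± 0.00146%, nuclear receptors as given above, histone genes at 0.0832 ± 0.00314% and dosage compensation genes at 0.0882 ± 0.00477%. Of the dosage compensation share roX1 gave 72.4%. Cytoskeleton and housekeeping genes held 1.59 ± 0.0719%, and eEF1alpha1, which is also a translation factor, gave 46.6% of it.

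By chromosome arm, genes of X held 15.04 ± 0.242% of counts, 2L 19.3 ± 0.178%, 2R 21.1 ± 0.251%, 3L 18.8 ± 0.157% and 3R 23.9 ± 0.0820%. The small chromosome 4 held 1.95 ± 0.0762% in 102 genes, and apolpp was 25.5% of that. The 24 genes of the Y held 0.0122 ± 0.000992%, and the 9 genes on none of these chromosomes 0.00827 ± 0.000870%. Genes of the mitochondrial genome could hold at most that last share. Ranks and shares of all counts given here thus refer in effect to nuclear genes. Protein-coding genes held 98.9 ± 0.0857% of counts and non-coding RNA genes 1.05 ± 0.0833%, with CR42862 alone giving 24.3% of the non-coding share. No arm's share differed by more than 1.11-fold between libraries, apart from the Y and genes on no arm.

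To describe how genes varied between the 5 controls, counts were scaled by TMM library sizes (scaled CPM), and the 10544 genes at a mean of at least 5 scaled CPM were kept. The median gene had an SD of 0.15 on the scale log2(scaled CPM + 0.5) and differed 1.31-fold between its highest and its lowest library. At least 2-fold was reached by 444 of the 10544 genes, or 4.21%, which is the background for each list below. At least 4-fold was reached by 58 genes and at least 10-fold by 13. The common biological coefficient of variation, the spread beyond counting error that edgeR estimates over all genes, was 14.7%. Of the 444 genes, 117, 165, 99, 26 and 37 were highest in libraries 1 to 5, and 88, 49, 195, 62 and 50 were lowest there. These numbers are the background for counts of a list's 2-fold genes by highest or lowest library. Library 3 was thus most often the lowest and library 2 most often the highest. These 2 libraries also differed most when libraries were taken in pairs. Without library 3, 276 genes (2.62%) differed 2-fold, and without library 2, 314 genes (2.98%).

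In pairs, libraries 1 and 5 differed 2-fold for 71 genes, libraries 4 and 5 for 72, and libraries 2 and 3 for 213. Among the 444 genes, 69 were above their own mean, on the log scale, in libraries 1 and 2 only, 52 in libraries 1, 2 and 5, 47 in libraries 2 and 4, and 32 in libraries 1 and 5. A gene was in these counts because it varied, so no test is given for any of them.

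**Figure D3:**
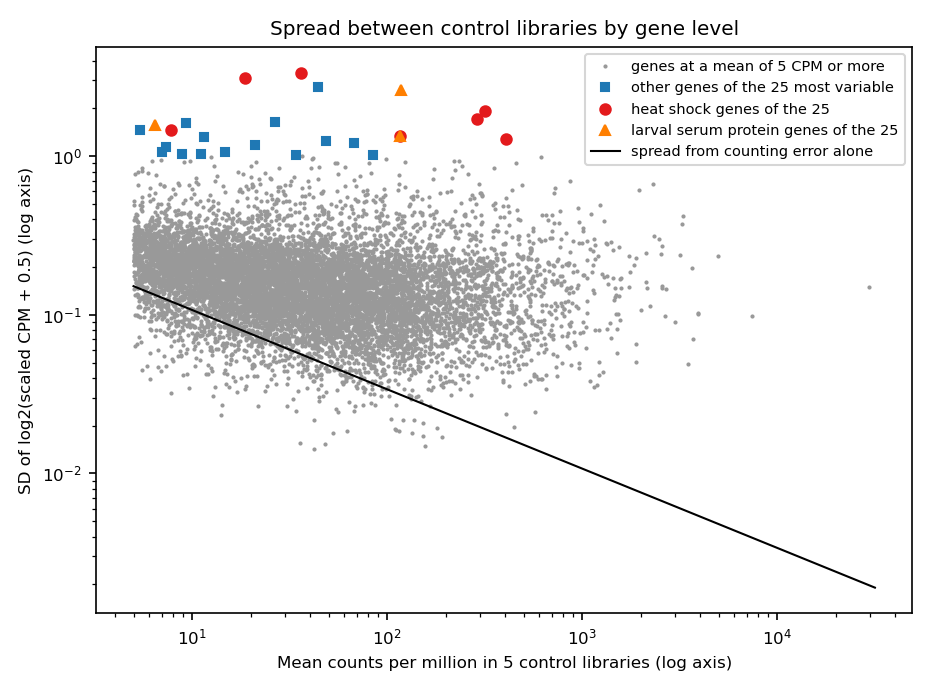
SD of log2(scaled CPM + 0.5) over the 5 control libraries against mean CPM (both axes log), a point per gene at a mean of 5 CPM or more; the line is the spread that counting error alone gives. Most genes lie above the line at an SD near 0.15, and the 25 most variable genes, with heat shock and larval serum protein genes marked, lie at 1.02 or more.

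Heat shock genes varied most. These genes encode chaperones that hold or refold damaged proteins, and several are scarcely transcribed in unstressed cells. Of 25 chaperone genes measured at 5 scaled CPM, 11 differed 2-fold (44.0%, against the 4.21% of all genes). All 11 were highest in library 5, against 37 of all 444 2-fold genes. Without library 5, 8 of the 25 differed 2-fold. The summed share of the list was 1.08, 0.851, 0.784, 0.888 and 1.48% of counts in libraries 1 to 5, highest in library 5.

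Hsp68 (FBgn0001230, 3R:24055080-24057310, minus strand), an inducible member of the Hsp70 family, had 300.1, 53.1, 65.4, 57.9 and 1108 scaled CPM in libraries 1 to 5. Hsp26, a small heat shock protein, had 309, 60.03, 62.5, 87.9 and 919.5 scaled CPM. Hsp27, another small heat shock protein, had 96.8, 37.4, 50.9, 41.9 and 355 scaled CPM. Each of the 3 was highest in library 5 and next highest in library 1, with libraries 2, 3 and 4 below both. DnaJ-1, a co-chaperone of Hsp70, had 570.3, 137, 139, 201 and 979 scaled CPM. Hsp67Bc, at a low level, had 7.54, 1.65, 2.20, 2.69 and 24.7 scaled CPM. Both again kept the order of library 5, then library 1, then the other 3.

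The strictly inducible Hsp70 genes went furthest. Hsp70Ab (FBgn0013276, 3R:11958535-11960909, plus strand) had 41.6, 0.879, 0.232, 1.32 and 138 scaled CPM, an SD of 3.36 on the log2 scale. Hsp70Ba (FBgn0013277, 3R:12465453-12467776, minus strand) had 9.20, 0.0549, 0.463, 0.253 and 83.02 scaled CPM. Hsp70Bc had 2.16, 0, 0.116, 0.152 and 18.6 scaled CPM. The Hsp70 copies are nearly identical in sequence, so how reads were split among them is uncertain, but each of the 3 was highest in library 5 and next in library 1.

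Abundant members followed with smaller ratios. Hsp83, the fly Hsp90, had 2278, 1749, 1038, 1516 and 3198 scaled CPM, a 3.08-fold range. The nuclear non-coding RNA Hsromega had 329.8, 142, 148, 119.9 and 469 scaled CPM, and stv, a co-chaperone of the BAG family, had 301, 108, 129, 136 and 490.0 scaled CPM. The constitutive genes stood apart from this: Hsc70-4 ranged 1.30-fold, Hsc70-5 of the mitochondria 1.10-fold, and Hsf, the transcription factor of the heat shock response, 1.07-fold with 59.3, 60.4, 62.3, 63.5 and 61.9 scaled CPM.

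Larval serum protein genes gave the next pattern. These encode hexamerins, storage proteins that the fat body secretes into the blood in large amounts before metamorphosis. Lsp2 (FBgn0002565, 3L:12129393-12131869, plus strand) had 301, 238, 4.52, 11.3 and 43.9 scaled CPM in libraries 1 to 5, a 66.7-fold range. Lsp1beta had 223, 221, 31.4, 38.9 and 71.97 scaled CPM and Lsp1alpha had 17.2, 8.62, 0.637, 1.72 and 4.24 scaled CPM. All 3 were highest in library 1, next in library 2 and lowest in library 3; Lsp1gamma, at 0.776, 1.32, 1.10, 1.17 and 1.83 scaled CPM, was too low for the filter and did not share that order.

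Of 19 fat body genes measured, 5 differed 2-fold (26.3%): the 3 just given, fit, a fat body gene that signals protein feeding, with 52.7, 46.5, 9.15, 23.01 and 40.1 scaled CPM, and GNBP1, a recognition protein for Gram-positive bacteria, with 16.4, 19.9, 9.90, 15.8 and 15.8 scaled CPM. The list was thus not uniform, since Nplp2, a secreted peptide precursor, ranged 1.56-fold and Apoltp, the lipid transfer particle, 1.32-fold. With any 1 library left out, 4 or 5 of the list did. In lipid metabolism 1 of 21 genes (4.76%) differed 2-fold, and none did without library 1 or without library 3. This was bmm, the main lipase of fat stores, with 212, 107, 84.3, 119 and 124 scaled CPM, highest in library 1 and lowest in library 3.

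Another group of the most variable genes was high in libraries 2 and 4 and lowest in library 3 or 1. CG14499 (FBgn0034317, 2R:18187707-18188573, plus strand) had 3.10, 55.3, 0.984, 131 and 26.3 scaled CPM, the third largest SD of all at 2.71. CG32368 had 19.1, 117, 13.8, 62.4 and 30.7 scaled CPM and lectin-37Da, a sugar-binding protein gene, had 48.1, 120.4, 14.6, 108 and 45.9 scaled CPM. Mur29B, a mucin-related gene, had 31.5, 134, 36.5, 145 and 74.5 scaled CPM. In all 4 the values of libraries 2 and 4 lay above those of the other 3.

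CG42825 had 12.1, 56.7, 2.72, 40.7 and 19.3 scaled CPM, CG43064 8.82, 30.04, 4.28, 21.1 and 9.39 scaled CPM and CG11671 3.94, 21.2, 4.57, 17.1 and 8.07 scaled CPM, with the same 2 libraries on top. CG6967 had 7.71, 24.99, 1.68, 13.6 and 9.45 scaled CPM, also with library 3 lowest. CG7298 was high in library 2 alone, with 1.83, 16.8, 0.579, 4.003 and 3.72 scaled CPM. The annotation gives no name to 7 of these genes beyond an identifier, and none of the 7 was in a list.

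The remaining genes of the 25 most variable each had an order of their own. Sfp79B, a seminal fluid gene, had 0.832, 2.86, 23.2, 8.51 and 10.7 scaled CPM, highest in library 3. ninaD, a scavenger receptor that takes up carotenoids for vision, had 9.59, 30.6, 58.2, 21.5 and 50.7 scaled CPM, lowest in library 1. MFS1, a membrane transporter gene, had 3.16, 4.39, 13.4, 18.3 and 4.81 scaled CPM, highest in libraries 3 and 4.

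CG34040 had 44.97, 24.002, 4.34, 16.2 and 15.8 scaled CPM and CG15263 had 15.6, 5.82, 2.08, 2.94 and 8.82 scaled CPM, both highest in library 1 and lowest in library 3. The non-coding gene CR43808 had 6.88, 1.21, 11.8, 6.08 and 10.7 scaled CPM, lowest in library 2. The 25th gene, Mur29B, had an SD of 1.016 and the next 2 below it, fit and CG13905, had 1.012 and 0.999, so no gap separates the 25 from the rest.

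**Figure D4:**
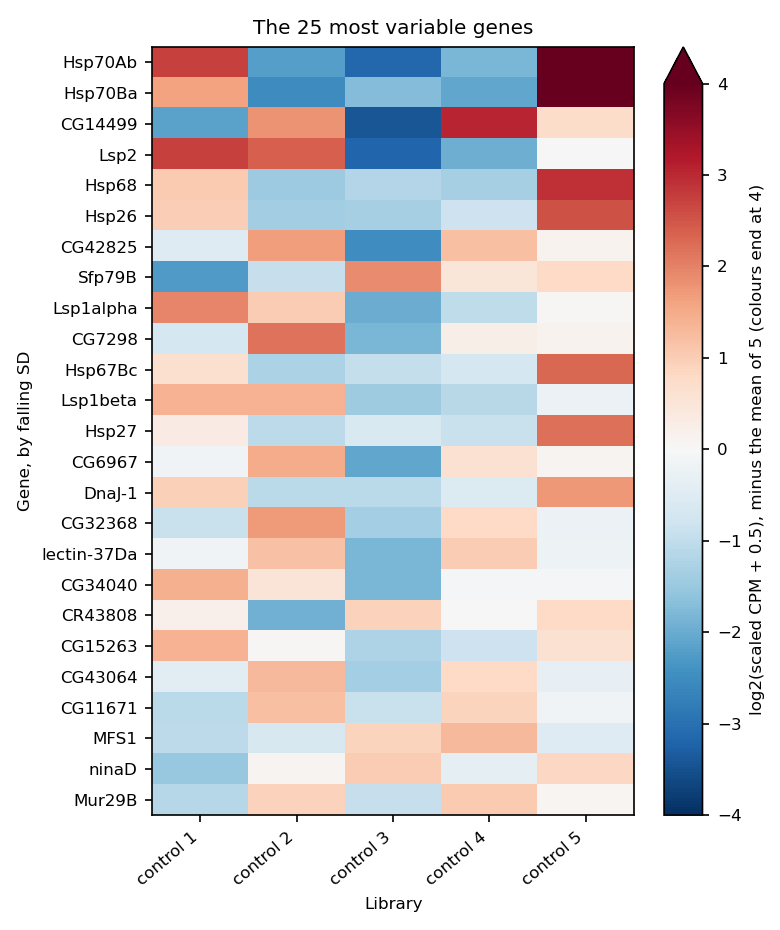
The 25 genes of highest SD (rows) in the 5 control libraries (columns), coloured by log2(scaled CPM + 0.5) minus the gene's mean over the 5; colours end at 4. The 7 heat shock genes are red in libraries 1 and 5 only, the 3 larval serum protein genes are red in libraries 1 and 2 (Lsp1alpha faintly in 5 too), and CG14499, CG32368, lectin-37Da and Mur29B are red in libraries 2 and 4 (CG14499 and Mur29B in 5 too).

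Seminal fluid genes varied in 2 ways. Their summed share was 2.17, 2.62, 3.26, 2.61 and 2.69% of counts in libraries 1 to 5. Of 80 measured, 22 differed 2-fold (27.5%, against 4.21% of all genes). Of the 22, 15 were highest in library 3 and 6 in library 2, against 99 and 165 of all 444 2-fold genes. The count of 2-fold genes in the list was 10 without library 1, which was low for most of the list. It was 14 without library 2 or without library 3. Library 3 was above the 5-library mean for 70 of 80 genes and library 1 for 9 of 80. The median member differed from its own mean by 0.31 in library 3 and -0.32 in library 1 (log2). Of all 10544 genes, 5085, 5331, 5136, 4932 and 5061 were above their mean in libraries 1 to 5. These are the background for each such count of a list, here and below.

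Acp95EF showed the main pattern with 414, 657, 879, 714 and 650.2 scaled CPM. The sex peptide gene SP, whose product changes female behaviour after mating, had 104, 160.1, 165, 131 and 145 scaled CPM. Acp26Aa, ovulin, a prohormone that triggers ovulation, had 396, 459.9, 609, 516 and 497 scaled CPM. All 3 were lowest in library 1 and highest in library 3.

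A smaller set was high in library 2 alone. Sfp87B had 435, 1387, 544, 633 and 603 scaled CPM, Sfp24Ba had 21.6, 106, 18.8, 33.3 and 27.9 scaled CPM and Sfp24Bc had 3.49, 18.1, 3.88, 5.78 and 3.55 scaled CPM. The ejaculatory bulb genes Ebp and EbpII, which encode proteins of the mating plug, were like these. Ebp had 1885, 4594, 1596, 2010.5 and 1396 scaled CPM. EbpII had 481, 1744, 685, 624 and 796 scaled CPM. For both, library 2 lay more than 2-fold above each of the other 4. They were the 2 of 13 measured genes of the ejaculatory duct and bulb that differed 2-fold, and none did without library 2.

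EbpIII and Est-6, of the same list, did not follow Ebp and EbpII. EbpIII had 1976, 1576, 2096, 1547 and 1977 scaled CPM and Est-6 had 1501, 1352, 1625, 1309 and 1459 scaled CPM, with libraries 2 and 4 lowest for both. Testis genes differed together but by little: none of 58 differed 2-fold, yet library 3 was above the mean for 57 of 58 of them, with a median difference of 0.30 (log2). S-Lap1, a sperm leucylaminopeptidase, had 1540.0, 1405, 1893, 1499 and 1466 scaled CPM and loopin-1 had 1286, 1157, 1619.8, 1317 and 1296 scaled CPM, both highest in library 3 and lowest in library 2.

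Digestive enzymes held 21 genes of 52 measured that differed 2-fold (40.4%), the list with the second highest share after the chaperones. Of the 21, 8 were highest in library 1, 8 in library 2, 2 in library 3, 3 in library 4 and none in library 5. Of all 444 2-fold genes, 117, 165, 99, 26 and 37 were highest in libraries 1 to 5. The 8 in library 2 are thus near the share of all. Without library 5, 13 genes differed 2-fold. The summed share was 2.25, 2.26, 2.27, 2.24 and 1.80% of counts in libraries 1 to 5, with library 5 below the other 4, which lay close together.

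Most genes of sugar digestion were highest in libraries 1 and 2. Of 12 maltase and amylase genes, which break down sugars and starch, 10 were higher in libraries 1 and 2 than in the other 3, and 7 differed 2-fold. How many of all 10544 genes had that order was not counted. Among the 444 2-fold genes, being above the mean in libraries 1 and 2 only was the commonest pattern, with 69 genes. Mal-A1, a maltase, had 1738, 1590.1, 941, 1003 and 1207 scaled CPM. Mal-A7 had 488, 376, 181, 223 and 242 and Amy-p, an amylase, 1433, 1045, 633, 707 and 959 scaled CPM. These 3 genes had the same order of libraries, 1, 2, 5, 4 and 3 from high to low, and so did Mal-A6 and Mal-A8; apart from Mal-A1 these genes were chosen after their values were seen. tobi, an alpha-glucosidase gene outside these 12, had 1241, 845, 293, 244 and 468 scaled CPM, also highest in libraries 1 and 2.

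Of the other 40 digestive genes, which include the proteases, 23 were lowest in library 5. How many of all 10544 genes were lowest there was not counted, so the 23 are a description only. Of the 14 that differed 2-fold, 9 were lowest in library 5, against 50 of all 444 2-fold genes. The 9 were the trypsin-like genes etaTry and thetaTry and the Jonah serine protease genes Jon25Bi, Jon25Bii, Jon25Biii, Jon65Ai, Jon65Aii, Jon99Fi and Jon99Fii. All were named after their values were seen. For etaTry the margin was small, with 13.34 scaled CPM in library 5 and 13.36 in library 1. Jon65Aii, with the largest ratio of the 9, had 37.2, 53.8, 45.8, 44.6 and 17.2 scaled CPM. The most abundant gene of the digestive list, the protease gene yip7, did not stand out in library 5. It had 2097, 2432, 3174, 2944 and 2115 scaled CPM, higher in libraries 3 and 4. LysX, a lysozyme gene, had 10.98, 42.3, 9.09, 23.4 and 14.4 scaled CPM, highest in library 2. Gba1a, a glucocerebrosidase, had 28.5, 35.2, 9.84, 31.8 and 20.3 scaled CPM, lowest in library 3.

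Of 15 genes of the gut lining and its cells, 3 differed 2-fold: Mur29B, Npc2d and Peritrophin-15a, a protein of the membrane around the food, with 13.9, 18.8, 21.997, 28.9 and 17.4 scaled CPM. Without library 1, 1 of the 15 did.

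Immune genes also varied. Of 37 measured immune effectors and recognition genes, 13 differed 2-fold (35.1%), and 8 did without library 2. Of the 13, 7 were highest in library 2, against 165 of all 444 2-fold genes. The antibacterial peptide gene DptB had 3.10, 20.3, 6.14, 10.03 and 8.87 scaled CPM and the antifungal and antibacterial peptide gene Mtk had 6.99, 31.4, 12.97, 21.3 and 13.2 scaled CPM. Both were lowest in library 1 and highest in library 2. The Turandot genes, stress-induced secreted peptides, differed from these: TotA had 450.1, 729.5, 439.5, 223 and 613 scaled CPM and TotC had 132, 254, 154, 64.6 and 263 scaled CPM, lowest in library 4. The most abundant members, CG18067 and the thioester protein Tep4, ranged 1.21-fold and 1.71-fold.

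Of 25 haemocyte genes, 2 differed 2-fold, the prophenoloxidases PPO1 and PPO2, enzymes of the melanization that seals wounds. PPO2 had 148, 115, 97.1, 50.8 and 163 scaled CPM and PPO1 had 138, 126, 84.9, 56.1 and 163 scaled CPM, lowest in library 4 and highest in library 5. Without library 4, neither did. Library 5 was above the mean for 21 of 25 haemocyte genes and library 3 for 3 of 25. Hml had 209, 153, 152, 120.3 and 219 scaled CPM and Ppn, a matrix protein, had 466, 365, 345, 315 and 552 scaled CPM, with libraries 1 and 5 highest for both.

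Detoxification genes held a part of the spread. Of 31 glutathione transferase genes, 8 differed 2-fold (25.8%), and 7 or 8 did when any 1 library was left out. Of the 8, 6 were highest in library 1, against 117 of all 444 2-fold genes. GstE7 had 74.02, 38.7, 17.4, 17.3 and 60.3 scaled CPM and GstE8 had 44.6, 24.8, 11.9, 15.5 and 43.9 scaled CPM, with libraries 1 and 5 on top. GstD2 had 5.43, 20.7, 10.1, 11.3 and 19.1 scaled CPM, lowest in library 1. GstD1, the most abundant, ranged 1.41-fold.

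Among 68 cytochrome P450 genes, 9 differed 2-fold (13.2%), and 5 did without library 3. Cyp309a1 had 72.7, 70.3, 18.9, 25.6 and 36.1 scaled CPM, Cyp6g1, a gene known for insecticide resistance, had 699, 453, 331, 331 and 512 scaled CPM, and Cyp4d14 had 17.6, 17.9, 50.01, 21.7 and 33.2 scaled CPM. The first 2 were higher in library 1 than in libraries 3 and 4, while Cyp4d14 was highest in library 3. Cyp4g1, the most abundant gene in the table, ranged 1.25-fold. Of 11 UDP-glycosyltransferase genes, 3 differed 2-fold (27.3%), and 1 did without library 1; Ugt36Ba had 7.76, 11.6, 1.68, 4.31 and 6.01 scaled CPM.

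Metal handling genes gave 4 of 14 (28.6%), and 2 without library 5. The metallothionein genes MtnE and MtnD, whose products bind copper and other metals, were high in library 5 alone. MtnE had 4.27, 6.26, 4.80, 5.88 and 14.4 scaled CPM. MtnD had 10.4, 11.1, 9.84, 10.9 and 29.4 scaled CPM. MtnC had 37.1, 32.3, 60.1, 27.5 and 72.1 scaled CPM, high in libraries 3 and 5. Tsf1, the iron carrier transferrin, had 1865, 1283, 889, 802 and 1325 scaled CPM, highest in library 1. The abundant MtnA ranged 1.43-fold and the ferritin Fer1HCH 1.26-fold.

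Of 32 odorant binding genes, 3 differed 2-fold (9.38%), led by Obp99b with 172, 157, 58.6, 47.9 and 181 scaled CPM, lower in libraries 3 and 4. Of 32 genes in the photoreceptor list, which also takes in carotenoid uptake and lens genes, 3 did (9.38%). They were ninaD, Rh6, a rhodopsin of the inner photoreceptors, with 11.1, 9.45, 4.23, 5.37 and 7.84 scaled CPM, and Cpr72Ec. The last, a lens protein also in the cuticle list, had 10.5, 8.35, 7.76, 6.33 and 14.4 scaled CPM. The main visual genes were steadier, with a 1.12-fold range for ninaE and 1.12-fold for Arr2, an arrestin that ends the light response. Of 17 cuticle genes, 4 did (23.5%), and 2 did without library 2; Cpr67Fb had 102, 29.9, 30.2, 80.2 and 26.1 scaled CPM. In muscle, 1 of 36 did, Act88F, the actin of flight muscle, with 46.02, 106, 101, 49.8 and 89.5 scaled CPM.

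Among neuronal genes, 2 of 47 (4.26%) differed 2-fold, close to the background, and none did without library 3. They were ple, tyrosine hydroxylase of dopamine synthesis, with 86.4, 136, 67.3, 68.97 and 77.9 scaled CPM, and nAChRbeta3, an acetylcholine receptor subunit, with 24.4, 37.4, 13.95, 18.9 and 32.6 scaled CPM. Both were highest in library 2 and lowest in library 3. Without library 2, 1 of the 47 did. The synaptic genes nSyb and cpx ranged 1.15-fold and 1.14-fold. Library 4 was above the mean for 42 of 47 neuronal genes, against 4932 of all 10544 genes, with a median difference of 0.13 (log2).

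Core cell functions varied by less than 2-fold. None of 91 cytosolic ribosomal, 71 mitochondrial ribosomal, 84 oxidative phosphorylation, 52 translation factor or 33 proteasome genes differed 2-fold, against 4.21% of all genes. The median SD (log2 scale) was 0.09 for cytosolic ribosomal and for proteasome genes, 0.10 for translation factors and 0.12 for oxidative phosphorylation. For mitochondrial ribosomal genes it was 0.16, not below the 0.15 of all genes. Median levels were 487 CPM for cytosolic and 14.7 CPM for mitochondrial ribosomal genes, so spreads were not compared at like level. RpL5 had 1203, 1204, 1137, 1199.7 and 1171 scaled CPM, and Rpn6, a proteasome subunit, had 241, 244, 229, 231 and 241 scaled CPM. Within that narrow range, library 2 was above the mean for 82 of 91 cytosolic and 64 of 71 mitochondrial ribosomal genes and 29 of 31 secretion genes, with median differences of 0.11, 0.17 and 0.15 (log2). For oxidative phosphorylation, libraries 2 and 3 were above the mean for 68 of 84 and 75 of 84 genes, and library 4 for 8 of 84.

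**Figure D5:**
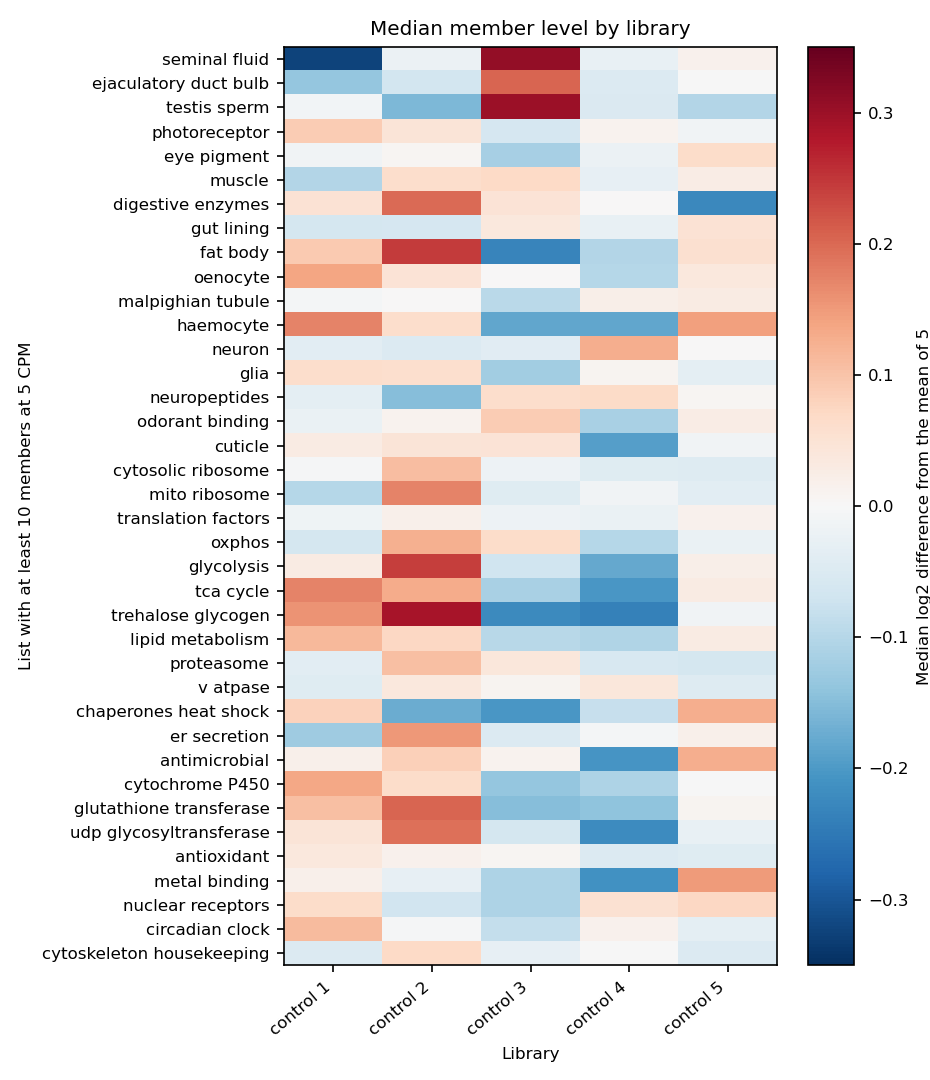
Median log2 difference of a list's members from their own 5-library mean (colour) by control library (columns), for lists with at least 10 members at 5 CPM. Seminal fluid genes run from -0.32 in library 1 to 0.31 in library 3, testis genes stand at 0.30 in library 3, and digestive enzymes at -0.23 in library 5, while the median over all genes is 0.00 in library 2 and -0.01 in the other 4.

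The summed shares of the glycolysis list and of the trehalose and glycogen list were highest in library 2. Library 2 was above the mean for 13 of 14 glycolytic genes and 9 of 10 trehalose and glycogen genes. Library 1 was above it for 10 of 14 and 8 of 10, and library 4 for 2 of 14 and 0 of 10. The citric acid cycle share was instead highest in library 1, at 0.812% of counts against 0.760% in library 2. GlyP, glycogen phosphorylase, had 835, 998, 670.3, 627 and 730.4 scaled CPM and AGBE, the glycogen branching enzyme, had 162, 274, 134, 143 and 156 scaled CPM. AGBE was the 1 of 10 trehalose and glycogen genes with a 2-fold range, and it had none without library 2 or without library 3. Men, malic enzyme, had 1349, 951, 853, 745 and 1128 scaled CPM and ACC, the first enzyme of fatty acid synthesis, had 1709.7, 1442, 1053, 1114 and 1341 scaled CPM, both highest in library 1. The clock genes tim and Pdp1 were highest in library 4. tim had 583, 476, 398, 764 and 575 scaled CPM. Pdp1 had 523, 480.0, 448, 710.5 and 566 scaled CPM. Neither ranged 2-fold.

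Smaller lists added few variable genes. In the V-ATPase list 1 of 32 (3.12%) differed 2-fold, Vha16-2 with 6.04, 3.19, 7.004, 5.12 and 5.15 scaled CPM, and none did without library 2 or without library 3. Its abundant relative Vha16-1, which forms the proton channel, ranged 1.15-fold. Among 17 antioxidant genes 1 did (5.88%), Prx2540-2, a peroxiredoxin, with 72.9, 46.9, 36.2, 39.5 and 45.7 scaled CPM; without library 1 none did, and without library 4 or without library 5 2 did. Cat, catalase, ranged 1.45-fold and Sod1, superoxide dismutase, 1.31-fold.

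None of 14 glial, 14 Malpighian tubule, 22 neuropeptide and 14 eye pigment genes differed 2-fold, against 4.21% of all genes. At that share, lists as short as these and the next ones may well hold none. Gs2, a glutamine synthetase, ranged 1.12-fold, and Eaat1, the glial glutamate transporter, 1.17-fold. ClC-a, a chloride channel of the tubules, ranged 1.18-fold. The peptide genes CCHa2 and ITP ranged 1.42-fold and 1.12-fold. Nor did any of the 8 dosage compensation or 7 sex determination genes: dsx, a transcription factor of sexual differentiation, had 166, 163, 164, 153 and 172 scaled CPM, and mle, a helicase of the dosage compensation complex, had 61.8, 61.7, 62.9, 66.2 and 64.9 scaled CPM.

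At the other end of the scale, 586 of the 10544 genes spread by less than counting error alone would give, and 4255 by more than 3 times as much. The 5 genes of lowest SD among those at 50 scaled CPM or more were Lis-1, a dynein regulator, Nedd4, a ubiquitin ligase, CG3061, CG3744 and Sac1, a phosphoinositide phosphatase. Lis-1 had 157, 157, 153, 155 and 156 scaled CPM and Nedd4 had 192, 189, 189.6, 195 and 193 scaled CPM in libraries 1 to 5. Each of the 5 ranged 1.03-fold, and its SD was below the one that counting error alone would give. Genes of chromosome 4 were steady as a group: none of 82 differed 2-fold, against 4.21% of all genes. Their median SD was 0.10, against 0.15 for all genes. The median level was 58.6 CPM over the 102 genes of chromosome 4 and 17.3 CPM over all genes in the table. Spreads were thus not compared at like level. Among genes often used as loading controls, alphaTub84B ranged 1.08-fold and eEF1alpha1 1.21-fold, while Act5C, a cytoplasmic actin, had 1151, 1749, 1099.5, 1473 and 1224 scaled CPM, a 1.59-fold range.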

How the data were processed

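Poly(A) RNA of whole flies was sequenced in 8 libraries, and the 5 labelled control were used; the 3 DHR39 libraries and every value of the genotype comparison were not used here. The deposited values are raw counts of read pairs or reads per gene that the authors made, and the submitters' processing notes name cutadapt 1.16, STAR 2.6.1b, featureCounts 1.6.3, DESeq2 1.20.0 and 1.22.2, and the builds BDGP6 and dm6. The strand setting of the counting is a detail not given in the sources used here. The authors' size factors, a ratio per library in the deposited sample sheet, served only in an alternative scaling. Each library held 17345101 to 19093675 counts, so 1 count was worth 0.0524 to 0.0577 CPM; this precision covers counting error only, and intervals are given as the SD over 5 libraries.

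CPM used library totals. Scaled CPM used TMM library sizes from edgeR 4.0.16 in R 4.3.3, with factors of 0.979 to 1.033. TPM used the union of exons in the Ensembl release 115 annotation of BDGP6, which matched 14768 of 14865 genes; the rest, with 1.33% of counts, have no TPM, coordinates or overlap check. Positions are 1-based. Variability used log2(scaled CPM + 0.5) at a mean of at least 5 scaled CPM, and 2-fold between the highest and lowest library is a rule of size, not a test. Tables were made with Python 3.11.15 and pandas 2.3.3.

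Named genes were the 20 of highest mean CPM, the 20 of highest mean TPM, the 25 of highest SD, the 5 of lowest SD at 50 CPM or more, up to 3 of highest level and up to 3 of highest 2-fold ratio in each of 45 lists, Hr39 and a set of markers. CG13905, GNBP1, Hsc70-5, Hsf, Hsp70Bc, Hsromega, Lsp1gamma, fit, stv, roX2, w and the digestive genes marked in the text fall outside this rule and were chosen in view of earlier results or after their values were seen. The libraries, lists and rules were chosen with earlier results of these data known. Of the markers, PebII is an older symbol of EbpII and ory was matched to ORY through RefSeq synonyms; Cp36 and Vm26Aa were not analysed here.

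Counts are uncertain for genes that overlap another gene on the same strand (ATPsynC, CR42862, Hr39, Hsromega, Nc73EF, RpL3, elav, fit, osk, roX1, tim). They are also uncertain for genes named here that overlap one on the opposite strand: ATPsynbeta, Acp95EF, Ald, CG3061, CG6967, Cpr67Fb, Cyp4d14, Cyp6g1, DptB, Eno, Est-6, Fer1HCH, Hnf4, Hsp27, Hsp68, Hsp70Ab, Hsp83, ITP, Irk3, Lsp2, Mal-A1, Mal-A8, Mst84Da, Nedd4, SERCA, Tps1, Vha16-2, Yp1, apolpp, dj, dsx, exu, fln, grk, nAChRbeta3, repo and tobi.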

Additional observations from a re-analysis of the deposited data

Results flagged for a closer look

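In a group of 5 libraries a value was taken as standing apart when the gap from the highest or lowest library to its nearest neighbour exceeded 0.710 of the whole range, Dixon's limit, which chance passes in about 1 of 20 groups. Over all 10544 genes at 5 scaled CPM, 869 (8.24%) passed it; 3 of 45 list shares and 24 of the 207 genes named here did. Many of the named genes were picked for their spread between libraries, so their gaps are given as descriptions and their number is no evidence of more such genes than elsewhere.

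Of the list shares, the gap was 0.932 of the range for digestive enzymes, with library 5 low, 0.765 for the ejaculatory duct and bulb, with library 2 high, and 0.780 for Malpighian tubule genes, with library 3 low.

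Library 5 stood apart, above the others, for 6 heat shock genes: the gap was 0.890 of the range for Hsp70Ba, 0.884 for Hsp70Bc, 0.813 for Hsp27, 0.766 for Hsp68, 0.745 for Hsp67Bc and 0.710 for Hsp26. The same library stood apart for the metallothionein genes MtnD (0.933) and MtnE (0.804), and stood below the others for the protease gene Jon25Bii (0.718).

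Library 2 stood apart, above the others, for the seminal genes Sfp24Bc (0.843), Sfp24Ba (0.832), Ebp (0.808), Sfp87B (0.792) and EbpII (0.751). It also did for AGBE (0.796), CG7298 (0.788), Gapdh1 (0.732), ple (0.722) and CG13905 (0.715).

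Library 3 stood apart, above the others, for the sperm and male genes dj (0.762), Mst57Da (0.748), Mst84Da (0.737) and S-Lap1 (0.723). Library 4 did so for the glial transporter gene Eaat1 (0.714).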

How the results depend on the processing

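The number of genes with 2-fold between libraries was 444; it was 1291 at a mean of 1 CPM or more, 269 at 20 or more, and 276 to 407 with each library left out, lowest without library 3. The common coefficient of variation was 13.2% to 15.7% with each library left out, 14.8% on library totals, 14.7% with DESeq2's size factors and 15.5% with no filter. Of the 25 most variable genes, 17 to 20 were among the 25 with each library left out, 20 with a pseudocount of 2, 18 at a mean of 1 CPM or more, 21 when ranked by edgeR's gene-wise estimate and 25 under the other scalings. With members that overlap another gene on the same strand left out, the share of counts was 2.18% for muscle, 0.361% for neurons, 3.97% for cytosolic ribosome, 1.82% for translation factors, 1.91% for oxidative phosphorylation, 0.574% for the citric acid cycle, 0.0492% for nuclear receptors, 0.1505% for clock genes, 0.0195% for dosage compensation, 0.0254% for sex determination and 1.41% for cytoskeleton and housekeeping genes, since fewer genes were summed. These alternatives moved 14 values and left 340 within the spread between libraries or within 1.5 times the count. Among the levels of the 20 most abundant genes and the counts of 2-fold members in 22 lists with each library left out, 23 values moved, all of them counts of members, and 227 did not; the counts were added after seeing the data, and where 1 library moved such a count, the count without it is given with the list. No paired analysis was possible because there is 1 group. Depth limits genes under 1 CPM most: the fewer the counts, the more of their spread is counting error.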
